A study of Homo sapiens with 12 samples.

Results

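Chaperones are proteins that help other proteins fold, and the 38 genes described here encode those of the cytosol and the mitochondrion together with their partners and regulators. They cover the HSP70 and HSP110 families, HSP90 and its co-chaperones, the small heat shock protein HSPB1, the mitochondrial chaperonin, DNAJ proteins, the CCT chaperonin, prefoldin and the heat shock factors HSF1 and HSF2. The genes were taken by symbol, with no measured value in the rule, though the list was chosen with earlier results of these data known. All 38 were found among the 63241 genes of the count table. Of these, 33 passed the filter on low counts and were tested, among 8773 genes tested in all. HSPA1A, HSPA1B, HSF2, PFDN4 and PFDN5 were too low to be tested.

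HSP70 proteins bind short hydrophobic stretches of unfolded clients and release them through cycles of ATP hydrolysis. DNAJ proteins bring them clients and start the hydrolysis, and exchange factors such as HSPH1 and BAG3 reset the cycle. HSP90 acts later, on kinases, steroid receptors and other clients near their folded state, and co-chaperones load, time and end its cycle. CCT is a double-ring chamber that folds actin and tubulin, prefoldin hands such chains to it, and HSPD1 with its lid HSPE1 does comparable work in the mitochondrial matrix. HSF1 is the factor that raises many of these genes under heat or proteotoxic stress, and many cancer lines hold HSP90 and HSP70 at a high level without added stress.

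The 12 libraries come from T98G and U251, established human glioblastoma lines. Each line was grown with PEPD over-expressed (PEPD-OE) or as NC, the label of its control, with 3 libraries in each of the 4 groups: T98G PEPD-OE, T98G NC, U251 PEPD-OE and U251 NC. PEPD encodes prolidase, the enzyme that splits dipeptides ending in proline, and the design sets PEPD-OE against NC within each line. The sources used here do not state the construct, the time after its delivery or whether the cells were clones or pools. Nothing in the labels says that the 3 libraries of a group came from separate cultures, so p-values measure the spread between these libraries, which may be technical.

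PEPD had 175, 156 and 162 CPM (counts scaled to 1000000 per library) in T98G PEPD-OE, against 19.0, 2.60 and 11.3 CPM in T98G NC. It had 170, 167 and 187 CPM in U251 PEPD-OE, against 13.2, 6.44 and 8.97 CPM in U251 NC, so every PEPD-OE library lay above every NC library. The log2 fold changes were 4.04 (SE 0.25) in T98G and 4.16 (SE 0.23) in U251, and their difference of -0.12 did not pass the test (edgeR quasi-likelihood, adjusted p = 0.886). Few reads were assigned to genes, at 464056 counts in T98G NC replicate 1 and up to 924204 in the others. At these totals 3 counts stood for 3.2 to 6.33 CPM. The totals count assigned reads and are not the depth of sequencing, which is not given here. Among markers of the glial lineage, VIM averaged 474 CPM in T98G PEPD-OE, 723 CPM in T98G NC, 1570 CPM in U251 PEPD-OE and 2090 CPM in U251 NC, while S100B was at 0 in all T98G libraries and SOX2 averaged 0.519 CPM in T98G PEPD-OE and 0.433 CPM in T98G NC. The summed 7 glial markers were lower under PEPD-OE, at 1180 to 1360 CPM in T98G PEPD-OE against 1630 to 1690 CPM in T98G NC. In U251 the sums were 3270 to 3820 CPM with PEPD-OE against 4710 to 4800 CPM in U251 NC. The markers did not all move alike. In T98G, edgeR called VIM (log2 fold change -0.61) and SOX9 (-1.37) lower. GFAP (0.42, edgeR adjusted p = 0.0816), CD44 (-0.15) and NES (-1.41) were not called there. In U251, GFAP (-0.62), VIM (-0.41) and SOX2 (-0.47) were called lower, whereas NES, SOX9 and CD44 were not called. The summed 5 fibroblast markers, mostly COL1A2, stood at 541 to 667 CPM in T98G PEPD-OE against 243 to 309 CPM in T98G NC. In U251 they stood at 309 to 399 CPM in U251 PEPD-OE against 506 to 541 CPM in U251 NC. PDGFRB averaged 72.7 CPM in T98G PEPD-OE and 49.2 CPM in T98G NC, a rise by 0.59 (edgeR adjusted p = 0.0278). Its U251 means were 0.398 CPM in PEPD-OE and 0.401 CPM in NC. The summed 6 epithelial markers stood at 148 to 225 CPM in T98G PEPD-OE, 146 to 190 CPM in T98G NC, 87.1 to 187 CPM in U251 PEPD-OE and 130 to 183 CPM in U251 NC, with EPCAM at 0 in every library. Within that list CLDN4 rose in T98G by 2.13 on the log2 scale and KRT8 fell by 0.80. The summed 4 endothelial markers stayed at or below 18.1 CPM, with VWF at 0 in every library.

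The summed 5 macrophage markers set the T98G libraries numbered 2 apart in both groups, as the sums reached 57.7 CPM in T98G PEPD-OE and 59.8 CPM in T98G NC and stayed at or below 10.5 CPM in U251. PTPRC, the pan-leukocyte phosphatase, had 1.48, 39.0 and 2.85 CPM in T98G PEPD-OE, against 0, 45.5 and 0 CPM in T98G NC. AIF1, CD14 and the endothelial PECAM1 were likewise highest in these libraries. With both left out, a setting chosen after seeing the data, 16 members fell and none rose in T98G by edgeR. The calls lost were STIP1 (adjusted p = 0.36), CDC37 (0.245), PTGES3 (0.145), CCT4 (0.0982) and DNAJB4 (0.0616). The difference between the lines was then called in 16 members, and the HSF1 call between the NC groups was lost (0.119). The part of these marker shifts in the other chaperone results was not tested.

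The strand of the counts limits what a value means. The library kit keeps the strand of origin, but the sources used here do not state which strand was counted. BEST1, which lies opposite the ferritin gene FTH1, held 486557 counts, or 5.31% of all 9167135 counts, against 10068 counts under FTH1. TUBA1B-AS1 held 191395 counts against 2894 under the tubulin gene TUBA1B. A chaperone's CPM is therefore the number of reads assigned to its name and may not be a plain level of its mRNA. Exons of 14 members share bases with an exon on the other strand, and 24 have no such overlap in GENCODE release 29. Counts are given below for these 24 on their own where calls are counted. They do not guard against counting of the wrong strand, which would bear on every member, with or without an exon opposite.

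HSF1 binds inverted repeats of the short word GAA, called heat shock elements. RefSeq promoter windows on GRCh38.p14, from 250 bases before to 50 after a start, were found for 34 members. The word GAANNTTCNNGAA, read on both strands, stood in a window of 7 of these 34 members and in 0.608% of the 27305 genes with a window. The shorter words GAANNTTC and TTCNNGAA, which the longer word contains, stood in 14 and 11 of the 34 members and in 8.21% and 9.46% of genes. The 7 windows with the longer word are printed because they hold the word that HSF1 is known to bind. They lie at chr11:123062087-123062386 (minus strand) for HSPA8, chr14:102086995-102087294 (minus strand) for HSP90AA1, chr6:44247693-44247992 (plus strand) for HSP90AB1, chr2:197499791-197500090 (minus strand) for HSPD1, chr9:33025023-33025322 (plus strand) for DNAJA1, chr7:157336754-157337053 (plus strand) for DNAJB6 and chr11:90223000-90223299 (minus strand) for CHORDC1. Each is given 5′ to 3′ on the strand of its gene, with every match of the longer word in capitals, including matches read on the other strand.
HSPA8: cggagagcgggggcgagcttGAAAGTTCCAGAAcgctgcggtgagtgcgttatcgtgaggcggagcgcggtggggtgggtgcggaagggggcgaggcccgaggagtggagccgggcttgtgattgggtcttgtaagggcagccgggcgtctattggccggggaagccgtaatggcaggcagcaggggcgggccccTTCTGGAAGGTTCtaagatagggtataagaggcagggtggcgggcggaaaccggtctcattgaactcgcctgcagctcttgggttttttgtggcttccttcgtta
HSP90AA1: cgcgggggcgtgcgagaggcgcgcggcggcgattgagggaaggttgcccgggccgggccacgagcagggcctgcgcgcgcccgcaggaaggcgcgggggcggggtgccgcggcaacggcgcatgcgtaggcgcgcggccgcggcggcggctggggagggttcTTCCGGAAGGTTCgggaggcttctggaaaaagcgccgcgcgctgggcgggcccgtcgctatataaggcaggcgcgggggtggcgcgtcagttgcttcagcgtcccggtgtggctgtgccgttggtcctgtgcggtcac
HSP90AB1: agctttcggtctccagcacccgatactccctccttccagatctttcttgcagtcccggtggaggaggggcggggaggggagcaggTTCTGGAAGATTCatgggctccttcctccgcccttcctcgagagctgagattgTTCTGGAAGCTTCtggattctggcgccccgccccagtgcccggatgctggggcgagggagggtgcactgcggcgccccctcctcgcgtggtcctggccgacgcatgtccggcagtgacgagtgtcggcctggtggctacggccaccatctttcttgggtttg
HSPD1: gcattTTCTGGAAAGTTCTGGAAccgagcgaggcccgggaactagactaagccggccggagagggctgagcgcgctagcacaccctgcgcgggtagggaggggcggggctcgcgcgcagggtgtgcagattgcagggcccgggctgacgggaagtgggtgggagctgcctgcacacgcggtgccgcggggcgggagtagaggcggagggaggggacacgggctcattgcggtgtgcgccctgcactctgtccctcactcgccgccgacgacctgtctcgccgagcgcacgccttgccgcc
DNAJA1: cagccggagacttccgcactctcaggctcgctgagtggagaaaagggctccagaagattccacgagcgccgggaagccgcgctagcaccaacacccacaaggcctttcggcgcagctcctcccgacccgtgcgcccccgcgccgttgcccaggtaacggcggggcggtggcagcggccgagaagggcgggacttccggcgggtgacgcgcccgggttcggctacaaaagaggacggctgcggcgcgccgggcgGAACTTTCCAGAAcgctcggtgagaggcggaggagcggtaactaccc
DNAJB6: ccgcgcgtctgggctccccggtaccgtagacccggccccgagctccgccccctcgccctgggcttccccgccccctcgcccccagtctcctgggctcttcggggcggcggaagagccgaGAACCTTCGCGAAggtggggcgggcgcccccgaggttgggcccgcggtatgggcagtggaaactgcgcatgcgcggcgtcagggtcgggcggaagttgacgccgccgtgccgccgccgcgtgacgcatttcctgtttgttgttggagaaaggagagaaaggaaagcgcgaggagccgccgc
CHORDC1: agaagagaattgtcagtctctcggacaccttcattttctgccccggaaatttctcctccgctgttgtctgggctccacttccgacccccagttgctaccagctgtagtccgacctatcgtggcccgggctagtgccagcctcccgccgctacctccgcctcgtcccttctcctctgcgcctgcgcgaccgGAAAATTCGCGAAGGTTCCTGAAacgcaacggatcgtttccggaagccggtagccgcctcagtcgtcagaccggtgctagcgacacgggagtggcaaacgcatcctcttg
Counted from the RefSeq start of each window as 0, the centre of the word lay at -224 and -49 bases in HSPA8, at -82 in HSP90AA1, at -159 and -106 in HSP90AB1, at -239 and -234 in HSPD1, at 9 in DNAJA1, at -125 in DNAJB6 and at -54, -49 and -44 in CHORDC1. That start is 1 of the annotated starts of a gene and can lie within the gene's full span, as it does for HSP90AA1. A match describes the letters of a window and is no evidence of bound HSF1, and no match says nothing about the factor.

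**Figure D1:**
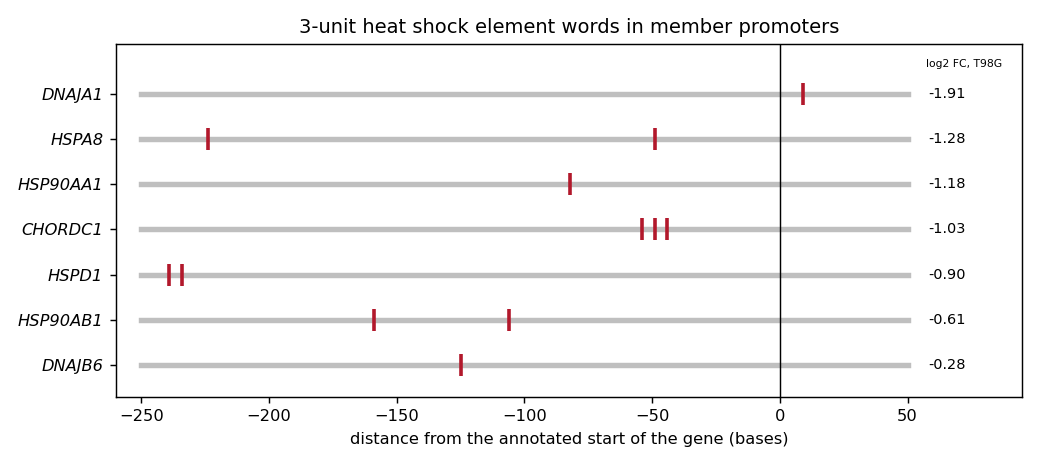
Positions of GAANNTTCNNGAA, on either strand, in the promoter windows of the 7 chaperone genes that hold it, on an axis of bases from the start site. HSPA8, HSP90AB1, HSPD1 and CHORDC1 hold more than 1 match, and CHORDC1 holds 3 within a few bases of each other.

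In T98G, PEPD-OE libraries had less of most chaperones than NC libraries. Of 33 tested members, 20 fell and 1, DNAJB4, rose, while 12 did not pass the test (edgeR quasi-likelihood, Benjamini-Hochberg adjusted p under 0.05 over all genes tested). Over all genes tested, 32.3% were called in this contrast, 17.7% higher and 14.7% lower. The members' median log2 fold change was -0.50, against 0.00 for all genes tested. In 22 of the 33 the T98G PEPD-OE libraries lay wholly below the T98G NC libraries, as did 20.9% of all genes tested, and in none did they lie wholly above, as did 22.6% of all genes tested. Groups of either order without overlap made up 43.5% of all genes tested. Among the 19 tested members with no exon opposite, 12 fell and 1 rose. When all 4176 tested genes of that kind were fitted on their own, 490 fell and 650 rose in T98G. In that fit 11 of the 19 members fell and 1 rose. Summed over all 38 genes, the T98G PEPD-OE libraries held 4340, 4560 and 4750 CPM, against 7310, 7690 and 7360 CPM in T98G NC, a ratio of means of 0.61. In bulk RNA, fewer cells with a transcript and less of it per cell cannot be told apart.

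**Figure D2:**
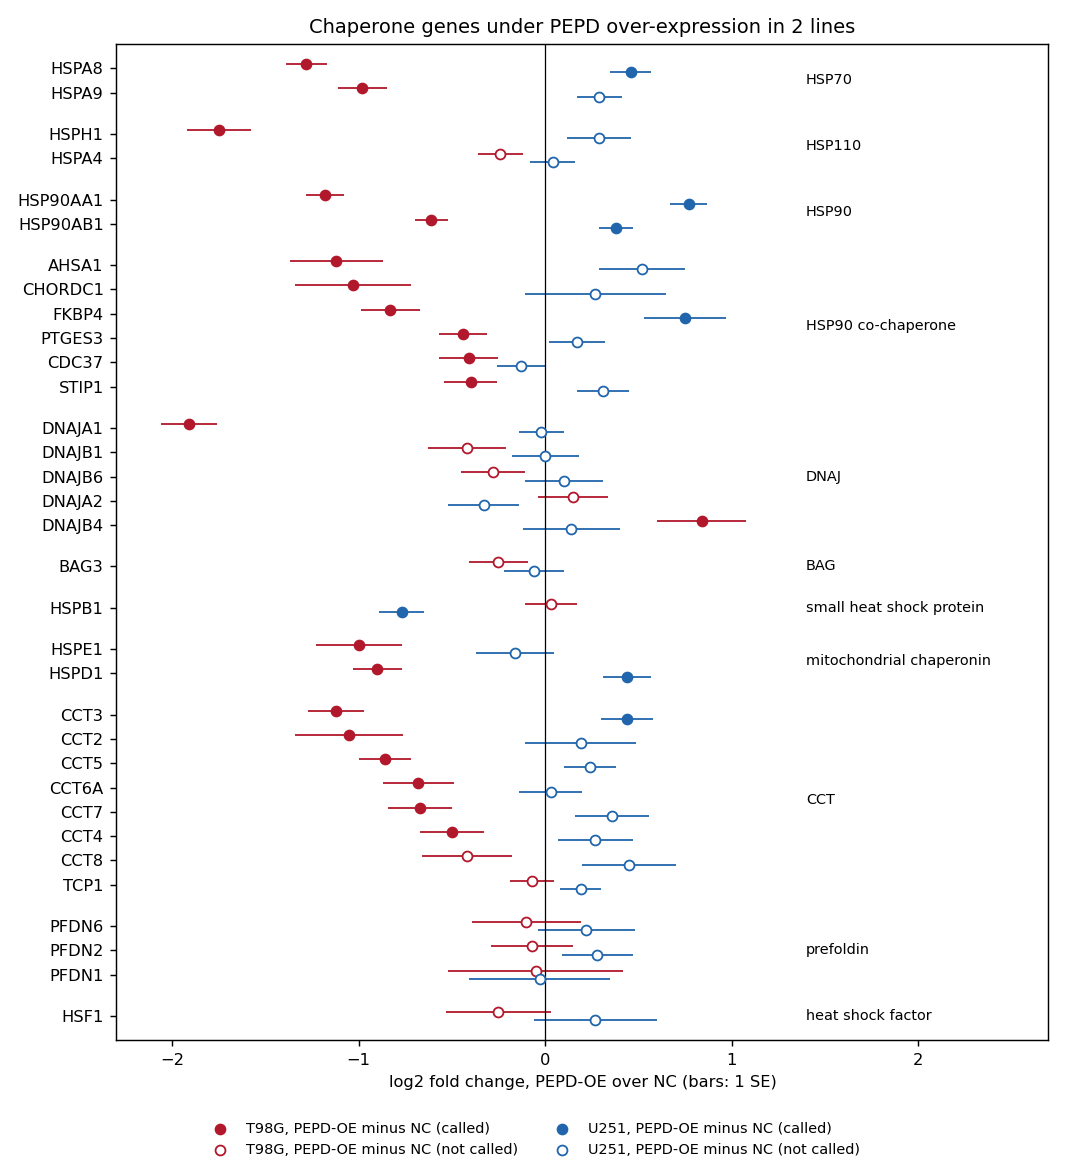
Log2 fold change of PEPD-OE over NC with its standard error for each of the 33 tested members in T98G and in U251, grouped by class. Most T98G values lie left of 0, down to -1.91 for DNAJA1, and most U251 values lie near or right of 0, up to 0.77 for HSP90AA1.

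HSPA8, the constitutive cytosolic HSP70, had 280, 374 and 333 CPM in T98G PEPD-OE, against 806, 859 and 739 CPM in T98G NC. The groups stood far apart, and HSPA8 fell by 1.28 on the log2 scale (SE 0.11, edgeR adjusted p = 1.52e-21), or 2.44-fold. HSPA9, the mitochondrial HSP70 that pulls imported chains into the matrix, had 139, 198 and 151 CPM in T98G PEPD-OE, against 329, 316 and 319 CPM in T98G NC. Its groups did not overlap either, and it fell by 0.98 (SE 0.13, adjusted p = 1.01e-10). HSPH1, an HSP110 protein that recharges HSP70 with ATP, had 71.0, 59.2 and 48.4 CPM in T98G PEPD-OE, against 192, 195 and 212 CPM in T98G NC. That is a fall by 1.75 (SE 0.17, adjusted p = 9.21e-18), the second largest among the members. HSPA4, a relative of HSPH1 with the same exchange activity, had 272, 310 and 286 CPM in T98G PEPD-OE, against 312, 363 and 344 CPM in T98G NC. Its libraries did not overlap, but the log2 fold change of -0.24 (SE 0.12) did not pass the test (adjusted p = 0.117). It passed when each line was fitted alone (adjusted p = 0.0193).

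The stress-induced HSP70 genes HSPA1A and HSPA1B were nearly silent in the table. HSPA1A had 0, 1 and 2 counts in T98G PEPD-OE, 0, 3 and 3 counts in T98G NC, 1, 0 and 0 counts in U251 PEPD-OE and 1, 0 and 0 counts in U251 NC. HSPA1B had at most 1 count in any library. The copies are almost identical in sequence, so reads that fit both may have been dropped or split by the counting, and no level can be read from either. The HSP70 class total, which rests on HSPA8 and HSPA9, was 419, 573 and 489 CPM in T98G PEPD-OE, against 1140, 1180 and 1060 CPM in T98G NC, a ratio of 0.438.

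HSP90AB1, the constitutive cytosolic HSP90, was the most counted member, with 926, 986 and 990 CPM in T98G PEPD-OE, against 1540, 1470 and 1430 CPM in T98G NC. HSP90AA1, the form that stress induces, had 365, 382 and 395 CPM in T98G PEPD-OE, against 798, 943 and 849 CPM in T98G NC. Neither gene's groups overlapped. HSP90AB1 fell by 0.61 on the log2 scale (SE 0.09, edgeR adjusted p = 1.47e-09) and HSP90AA1 by 1.18 (SE 0.10, adjusted p = 5.49e-21). HSP90AA1 shares exon bases with WDR20 on the other strand, whereas HSP90AB1 has no exon opposite. Per kb of exon over the 12 libraries, HSP90AB1 stood at 381 CPM, HSPB1 at 144 CPM, HSP90AA1 at 126 CPM, PFDN2 at 92.9 CPM and HSPA8 at 91.8 CPM.

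All 6 listed HSP90 co-chaperones fell in T98G, with a median log2 fold change of -0.63. AHSA1, which speeds up the HSP90 ATPase, had 23.7, 21.8 and 34.2 CPM in T98G PEPD-OE, against 54.9, 52.0 and 66.5 CPM in T98G NC, a fall by 1.12 (SE 0.25, adjusted p = 1.16e-04). CHORDC1, an HSP90 partner that is itself induced by heat, had 16.3, 15.6 and 22.8 CPM in T98G PEPD-OE, against 46.4, 29.9 and 38.9 CPM in T98G NC, a fall by 1.03 (SE 0.31, adjusted p = 0.00617). FKBP4, the immunophilin that joins HSP90 on steroid receptors, had 94.7, 76.3 and 94.0 CPM in T98G PEPD-OE, against 154, 135 and 182 CPM in T98G NC, a fall by 0.83 (SE 0.16, adjusted p = 9.37e-06). In each of these 3 genes every T98G PEPD-OE library lay below every T98G NC library.

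The other 3 co-chaperones fell by less. PTGES3, the p23 protein that holds HSP90 closed, had 180, 185 and 182 CPM in T98G PEPD-OE, against 232, 277 and 230 CPM in T98G NC, a fall by 0.44 (SE 0.13, edgeR adjusted p = 0.00655). CDC37, which delivers kinases to HSP90, had 102, 101 and 114 CPM in T98G PEPD-OE, against 154, 148 and 123 CPM in T98G NC, a fall by 0.41 (SE 0.16, adjusted p = 0.0358). STIP1, the adaptor that passes clients between HSP70 and HSP90, had 175, 150 and 212 CPM in T98G PEPD-OE, against 192, 255 and 255 CPM in T98G NC, a fall by 0.40 (SE 0.14, adjusted p = 0.0140). STIP1 groups overlapped and those of PTGES3 and CDC37 did not. The PTGES3 call was lost when T98G NC replicate 2 was left out (adjusted p = 0.0936). The STIP1 call was lost after leaving out T98G PEPD-OE replicate 2 (0.161), T98G NC replicate 2 (0.0895) or T98G NC replicate 3 (0.087), and the CDC37 call without T98G PEPD-OE replicate 1 (0.0998) or 2 (0.112) or T98G NC replicate 1 (0.105) or 2 (0.123).

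DNAJA1, a cytosolic DNAJ protein that works with HSPA8, showed the largest fall of the 33 members. It had 84.3, 62.3 and 75.5 CPM in T98G PEPD-OE, against 281, 278 and 280 CPM in T98G NC. The T98G NC libraries were tightly grouped and far above all T98G PEPD-OE libraries, and DNAJA1 was 3.76-fold lower in T98G PEPD-OE, with a log2 fold change of -1.91 with an SE of 0.15 (edgeR adjusted p = 1.67e-24). DNAJB4, a close relative of DNAJB1, was higher instead, with 57.7, 51.4 and 84.1 CPM in T98G PEPD-OE, against 31.7, 22.1 and 52.7 CPM in T98G NC. Its groups overlapped, and its rise by 0.84 (SE 0.24, adjusted p = 0.00285) was no longer called without T98G PEPD-OE replicate 3 (adjusted p = 0.0887) or T98G NC replicate 2 (adjusted p = 0.117).

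The remaining DNAJ genes were not called in T98G. DNAJB1, the main heat-induced DNAJ of the cytosol, had 66.6, 35.8 and 48.4 CPM in T98G PEPD-OE, against 42.2, 79.3 and 72.8 CPM in T98G NC, with overlapping groups and a log2 fold change of -0.42 with an SE of 0.21 (edgeR adjusted p = 0.124). It was called lower without T98G PEPD-OE replicate 1 (adjusted p = 0.0345) and without T98G NC replicate 1 (adjusted p = 0.0339). DNAJA2 had a log2 fold change of 0.15 (adjusted p = 0.582), and DNAJB6, which keeps polyglutamine chains from aggregating, of -0.28 (adjusted p = 0.221). BAG3, which links HSP70 to selective autophagy, had 102, 84.1 and 105 CPM in T98G PEPD-OE, against 101, 122 and 119 CPM in T98G NC, with a log2 fold change of -0.25 with an SE of 0.16 (adjusted p = 0.265). HSPB1, a small heat shock protein that holds unfolded chains without ATP, had 170, 171 and 211 CPM in T98G PEPD-OE, against 205, 156 and 186 CPM in T98G NC, with a log2 fold change of 0.03 with an SE of 0.14 (adjusted p = 0.888).

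HSPD1, the mitochondrial chaperonin HSP60, had 158, 187 and 167 CPM in T98G PEPD-OE, against 321, 346 and 289 CPM in T98G NC. Its lid HSPE1 had 37.0, 42.1 and 28.5 CPM in T98G PEPD-OE, against 67.5, 72.8 and 72.8 CPM in T98G NC. Both genes separated the groups fully, with falls by 0.90 for HSPD1 (SE 0.13, edgeR adjusted p = 2.01e-09) and by 1.00 for HSPE1 (SE 0.23, adjusted p = 1.51e-04). They are read in opposite directions from a shared promoter, and their annotated exons share 281 bases.

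**Figure D3:**
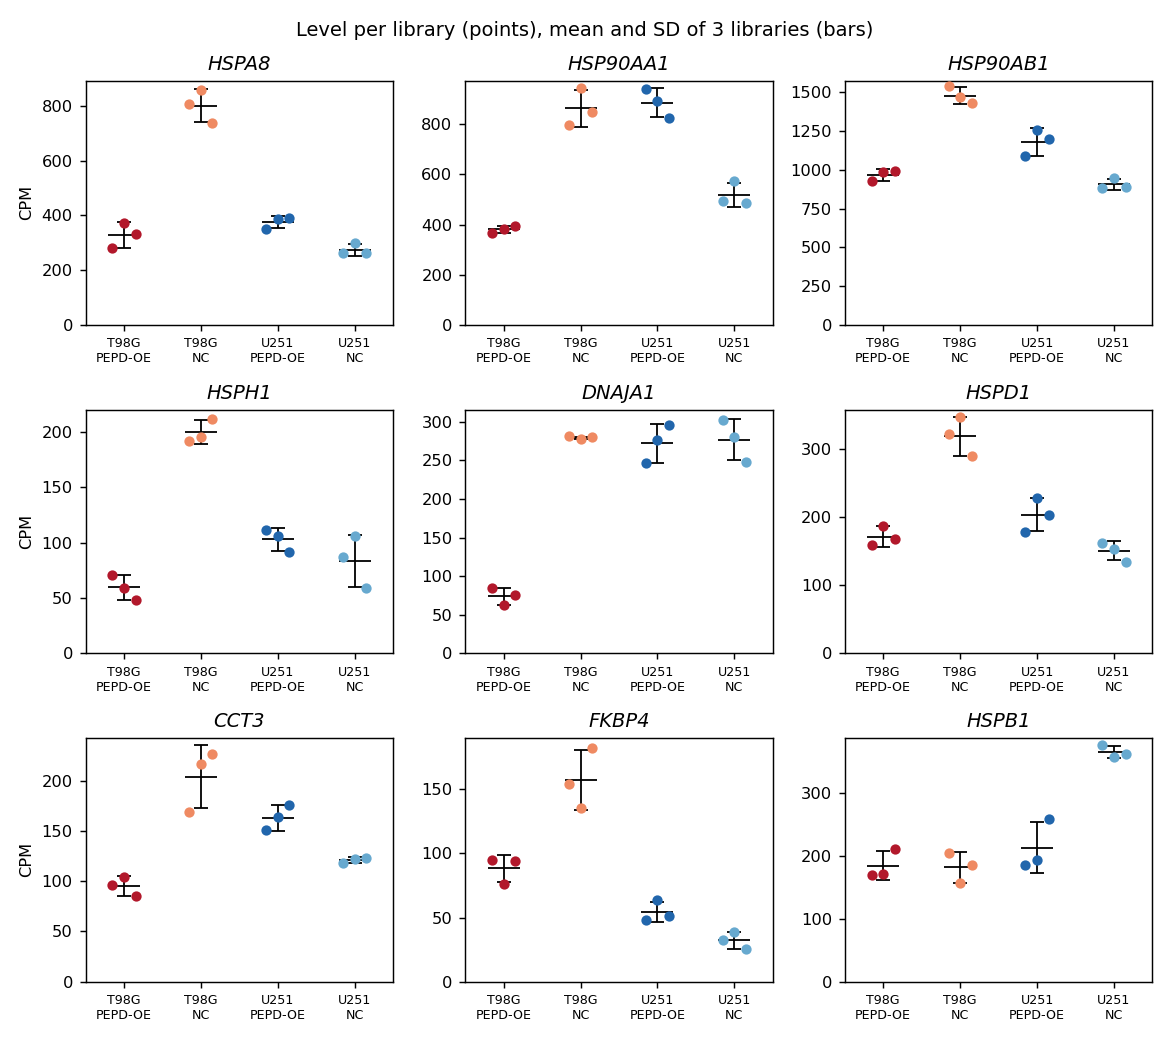
CPM of selected chaperone genes in each of the 12 libraries, with T98G PEPD-OE left of T98G NC and U251 PEPD-OE left of U251 NC; points are libraries and bars are group means. In T98G the PEPD-OE points of HSPA8, HSP90AA1 and DNAJA1 lie below all NC points, and in U251 those of HSPA8 and HSP90AA1 lie above them.

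Of the 8 CCT subunits, which sit side by side in each ring, 6 fell in T98G, and the class had a median log2 fold change of -0.68. CCT3 had 96.1, 104 and 85.5 CPM in T98G PEPD-OE, against 169, 217 and 227 CPM in T98G NC, a fall by 1.12 (SE 0.15, edgeR adjusted p = 1.22e-10). CCT5 averaged 144 ± 29.4 CPM in T98G PEPD-OE and 264 ± 12.1 CPM in T98G NC (SD, n = 3 each). Its log2 value dropped by 0.86 (SE 0.14, adjusted p = 6.68e-08). CCT2 fell by 1.05 (SE 0.29, adjusted p = 0.00224) at 16.3, 26.5 and 21.4 CPM in T98G PEPD-OE, against 27.4, 50.7 and 48.9 CPM in T98G NC. All 3 subunits separated the groups. CCT7 fell by 0.67 (SE 0.17, adjusted p = 0.00116), CCT6A by 0.68 (SE 0.19, adjusted p = 0.00206) and CCT4 by 0.50 (SE 0.17, adjusted p = 0.0159). The CCT6A call was lost when T98G PEPD-OE replicate 1 was left out (adjusted p = 0.0869), and the CCT4 call without T98G PEPD-OE replicate 2 (0.103) or T98G NC replicate 1 (0.0698).

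The other subunits, TCP1 and CCT8, were not called. TCP1 had 259, 237 and 266 CPM in T98G PEPD-OE, against 266, 268 and 268 CPM in T98G NC, groups that touch, with a log2 fold change of -0.07 with an SE of 0.12 (edgeR adjusted p = 0.687). CCT8 had 34.0, 42.1 and 45.6 CPM in T98G PEPD-OE, against 46.4, 63.7 and 50.2 CPM in T98G NC, with no overlap and a log2 fold change of -0.42 with an SE of 0.24 (adjusted p = 0.173). Summed CCT counts were 745, 751 and 829 CPM in T98G PEPD-OE, against 1150, 1190 and 1170 CPM in T98G NC, a ratio of 0.662.

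CCT5, CCT4 and TCP1 share exon bases with genes on the other strand, which held more counts than CCT5 and CCT4 and fewer than TCP1. AC012640.4, a noncoding transcript opposite CCT5, held 11504 counts over the 12 libraries against 1571 for CCT5, and 68.9% of its exon bases lie in CCT5 exons. It had 837, 894 and 956 CPM in T98G PEPD-OE, against 1780, 1880 and 1870 CPM in T98G NC, a log2 fold change of -1.04 with an SE of 0.09 (edgeR adjusted p = 6.54e-22), the direction seen under the CCT5 name. ACAT2, an acetyl-CoA enzyme gene that shares 397 exon bases with TCP1, held 1675 counts against 3221 for TCP1 and fell by 1.42 (SE 0.15, adjusted p = 4.01e-15), while TCP1 itself was not called. AC107081.2, opposite CCT4, held 1548 counts against 665 for CCT4 and fell by 0.45 (SE 0.14, adjusted p = 0.00731). How reads were divided between each pair cannot be told apart from these counts.

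Prefoldin and the heat shock factors were not called in T98G. PFDN2, the prefoldin subunit with most counts, had 45.9, 48.3 and 62.7 CPM in T98G PEPD-OE, against 57.0, 67.6 and 41.4 CPM in T98G NC, with a log2 fold change of -0.07, and PFDN6 and PFDN1 had -0.10 and -0.05. The groups of PFDN2 overlapped. PFDN4 stayed at 1.56 to 14.8 CPM and PFDN5 at 0 to 2.60 CPM over the 12 libraries, and neither was tested. HSF1 had 22.2, 29.6 and 34.2 CPM in T98G PEPD-OE, against 25.3, 46.8 and 27.6 CPM in T98G NC, with overlapping groups and a log2 fold change of -0.25 with an SE of 0.28 (edgeR adjusted p = 0.545). HSF2 stayed at 0 to 7.12 CPM in all libraries.

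In U251, fewer members changed and most of those that did went up. Of 33 tested members, 6 rose, namely HSPA8, HSP90AA1, HSP90AB1, HSPD1, FKBP4 and CCT3, and HSPB1 fell, while 26 did not pass the test. Over all genes tested, 8.55% were called in this contrast, 4.13% higher and 4.42% lower. The members' median log2 fold change was 0.24, against 0.00 for all genes tested. In 11 members the U251 PEPD-OE libraries lay wholly above the U251 NC libraries, as did 11.4% of all genes tested, and in 1, HSPB1, they lay wholly below, as did 11% of all genes tested. Among the 19 tested members with no exon opposite, 3 rose and 1 fell. When all 4176 tested genes of that kind were fitted on their own, 134 rose and 111 fell in U251. In that fit 3 of the 19 members rose and 1 fell. The number of members called was 4 without U251 PEPD-OE replicate 2 and 4 without U251 NC replicate 3. The calls lost both times were CCT3, FKBP4 and HSPD1. Summed over all 38 genes, the U251 PEPD-OE libraries held 5620, 6150 and 6090 CPM, against 5080, 5110 and 4850 CPM in U251 NC, a ratio of 1.19.

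HSP90AA1 had 939, 894 and 824 CPM in U251 PEPD-OE, against 494, 573 and 487 CPM in U251 NC. HSP90AB1 had 1090, 1260 and 1200 CPM in U251 PEPD-OE, against 884, 949 and 890 CPM in U251 NC. Neither overlapped. HSP90AA1 rose by 0.77 on the log2 scale (SE 0.10, edgeR adjusted p = 1.24e-10), or 1.71-fold, and HSP90AB1 by 0.38 (SE 0.09, adjusted p = 9.68e-04). Summed HSP90 counts were 2030, 2150 and 2020 CPM in U251 PEPD-OE, against 1380, 1520 and 1380 CPM in U251 NC, a ratio of 1.45.

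HSPA8 had 351, 387 and 391 CPM in U251 PEPD-OE, against 261, 300 and 261 CPM in U251 NC, and rose by 0.46 (SE 0.11, edgeR adjusted p = 0.00233). HSPD1 had 178, 227 and 203 CPM in U251 PEPD-OE, against 161, 153 and 134 CPM in U251 NC, and rose by 0.44 (SE 0.13, adjusted p = 0.0192). Both separated the groups. The HSPD1 call was lost without U251 PEPD-OE replicate 2 (adjusted p = 0.163) or U251 NC replicate 3 (0.138). HSPE1, its lid, had 37.7, 50.1 and 60.9 CPM in U251 PEPD-OE, against 68.6, 46.4 and 53.8 CPM in U251 NC, overlapping groups with a log2 fold change of -0.16 with an SE of 0.21 (adjusted p = 0.740).

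FKBP4 had 48.2, 63.3 and 51.3 CPM in U251 PEPD-OE, against 32.5, 38.6 and 25.6 CPM in U251 NC, and rose by 0.75 (SE 0.22, edgeR adjusted p = 0.0163). Its groups did not overlap, but the call was lost without U251 PEPD-OE replicate 2 (adjusted p = 0.142), U251 NC replicate 1 (0.059) or U251 NC replicate 3 (0.136). CCT3 had 151, 164 and 176 CPM in U251 PEPD-OE, against 118, 122 and 123 CPM in U251 NC, again without overlap, and rose by 0.44 (SE 0.14, adjusted p = 0.0330). Its call was lost when any U251 library other than U251 PEPD-OE replicate 1 was left out, with adjusted p from 0.0731 to 0.123. The other 5 HSP90 co-chaperones were not called: AHSA1 had a log2 fold change of 0.52 with an SE of 0.23 (adjusted p = 0.162), STIP1 of 0.31 (SE 0.14, adjusted p = 0.169) and CDC37 of -0.13 (adjusted p = 0.640), and AHSA1 libraries of U251 PEPD-OE, at 39.2, 51.3 and 53.4 CPM, lay above the 33.7, 33.5 and 34.6 CPM of U251 NC.

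HSPB1 was the member that fell in U251, with 185, 193 and 259 CPM in U251 PEPD-OE, against 376, 357 and 361 CPM in U251 NC. The groups stood apart, and the fall was by 0.77 (SE 0.12, edgeR adjusted p = 3.50e-07), or 1.7-fold. DNAJA1 had 246, 276 and 296 CPM in U251 PEPD-OE, against 302, 280 and 248 CPM in U251 NC, overlapping groups with a log2 fold change of -0.02 with an SE of 0.12 (adjusted p = 0.963). HSPA9 had 235, 303 and 257 CPM in U251 PEPD-OE, against 224, 236 and 193 CPM in U251 NC, a log2 fold change of 0.29 with an SE of 0.12 (adjusted p = 0.143), and HSPH1 one of 0.29 (SE 0.17, adjusted p = 0.318). AC012640.4, opposite CCT5, rose by 0.26 (SE 0.09, adjusted p = 0.0379), while CCT5 had 0.24 (SE 0.14, adjusted p = 0.350).

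**Figure D4:**
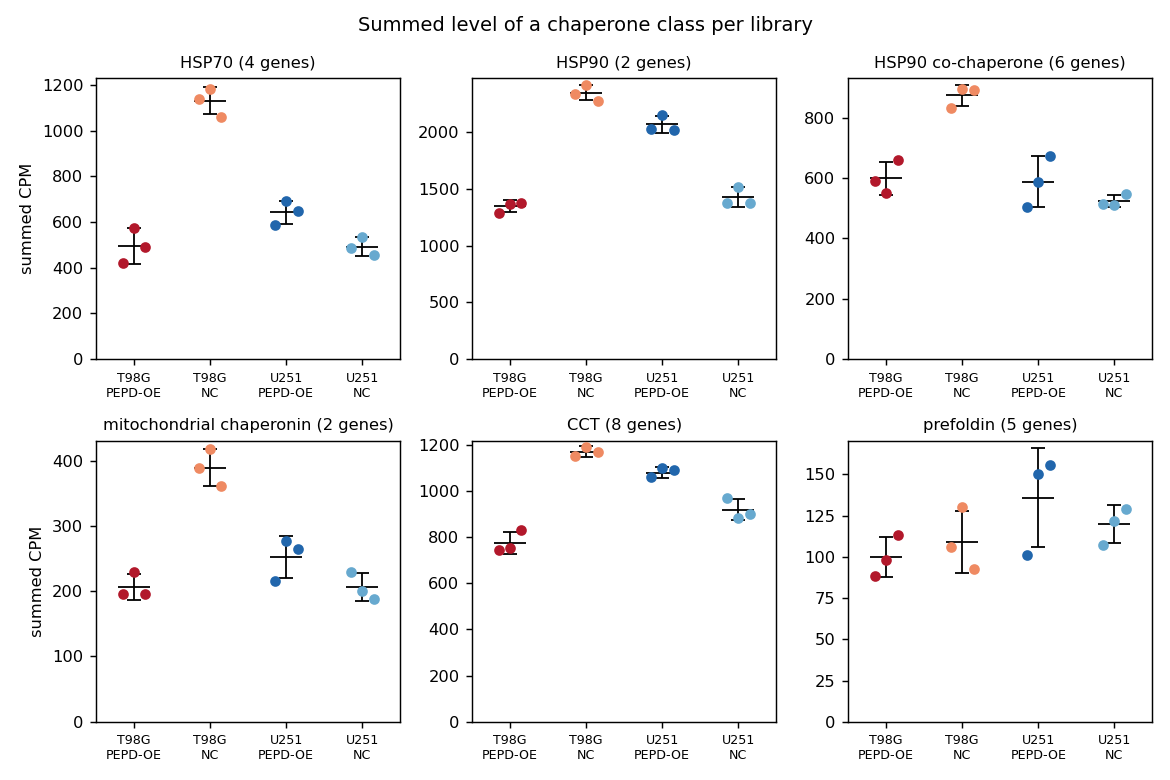
Summed CPM of the HSP70, HSP90, HSP90 co-chaperone, mitochondrial chaperonin, CCT and prefoldin classes in each of the 12 libraries. Within each panel T98G PEPD-OE is left of T98G NC and U251 PEPD-OE left of U251 NC. The other classes are not drawn. HSP70, HSP90, the mitochondrial chaperonin and CCT sums are lower in T98G PEPD-OE than in T98G NC, and the HSP90 sum is higher in U251 PEPD-OE, at 2020 to 2150 CPM, than in U251 NC, at 1380 to 1520 CPM.

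Whether PEPD-OE moved the members differently in the lines was tested as the T98G change minus the U251 change. Of 33 members, 20 had a lower and 1, HSPB1, a higher change in T98G, where 27.7% of all genes tested were called, 13.6% lower and 14.1% higher. The median difference was -0.77 on the log2 scale, against -0.02 over all genes tested. HSPH1 differed by -2.04 (SE 0.24, edgeR adjusted p = 4.72e-13), HSP90AA1 by -1.96 (SE 0.14, adjusted p = 1.66e-26) and DNAJA1 by -1.89 (SE 0.19, adjusted p = 2.67e-16). HSPA8 differed by -1.74 (SE 0.16, adjusted p = 1.28e-19), AHSA1 by -1.64 (SE 0.34, adjusted p = 4.07e-05) and FKBP4 by -1.58 (SE 0.27, adjusted p = 8.03e-07). In HSPB1 the difference of 0.80 (SE 0.18, adjusted p = 2.40e-04) came with a called fall in U251 and no call in T98G.

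By these calls the members showed 5 patterns. Over all genes tested, 14.7% were called lower in T98G and 4.13% higher in U251. The share of all genes with each joint pattern was not counted, so the patterns only describe the members. HSPA8, HSP90AA1, HSP90AB1, HSPD1, FKBP4 and CCT3 fell in T98G and rose in U251. Another 14 members fell in T98G and were not called in U251, among them DNAJA1, HSPH1, HSPA9, HSPE1, 5 of the co-chaperones and 5 CCT subunits. DNAJB4 was called higher in T98G alone and HSPB1 lower in U251 alone. The remaining 11, HSPA4, DNAJA2, DNAJB1, DNAJB6, BAG3, HSF1, TCP1, CCT8, PFDN1, PFDN2 and PFDN6, were called in neither. Of the 14, CDC37 had no called difference between the lines (-0.27, edgeR adjusted p = 0.350), and neither had DNAJB4 (0.70, adjusted p = 0.138, though 0.0196 without T98G NC replicate 3), so a call in T98G alone does not show that these genes behaved differently in U251.

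Of the 21 called differences, 7 were lost when some single libraries were left out. The CCT2 difference was no longer called after leaving out T98G PEPD-OE replicate 1 or U251 NC replicate 2 or 3 (edgeR adjusted p up to 0.0766), and the CCT4 difference after leaving out T98G PEPD-OE replicate 2, U251 PEPD-OE replicate 1 or U251 NC replicate 1 (up to 0.066). CCT6A lost its call with T98G PEPD-OE replicate 1, T98G NC replicate 2, U251 PEPD-OE replicate 2 or U251 NC replicate 3 left out (up to 0.187), and PTGES3 with T98G NC replicate 2 or U251 PEPD-OE replicate 3 left out (up to 0.0791). STIP1 lost it only where both T98G libraries numbered 2 were left out (0.0683). HSPE1 lost it with T98G PEPD-OE replicate 3, T98G NC replicate 2 or 3, U251 PEPD-OE replicate 3 or U251 NC replicate 2 or 3 left out (up to 0.147). CHORDC1 lost it without each of 8 libraries, all but T98G PEPD-OE replicate 3, T98G NC replicate 2, U251 PEPD-OE replicate 1 and U251 NC replicate 1 (up to 0.246). CCT8 likewise lost it without each of 8 libraries, all but T98G PEPD-OE replicate 3, T98G NC replicate 1, U251 PEPD-OE replicate 3 and U251 NC replicate 3 (up to 0.162), and under most other settings, so its difference of -0.86 (SE 0.34, adjusted p = 0.0478) sits at the threshold.

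**Figure D5:**
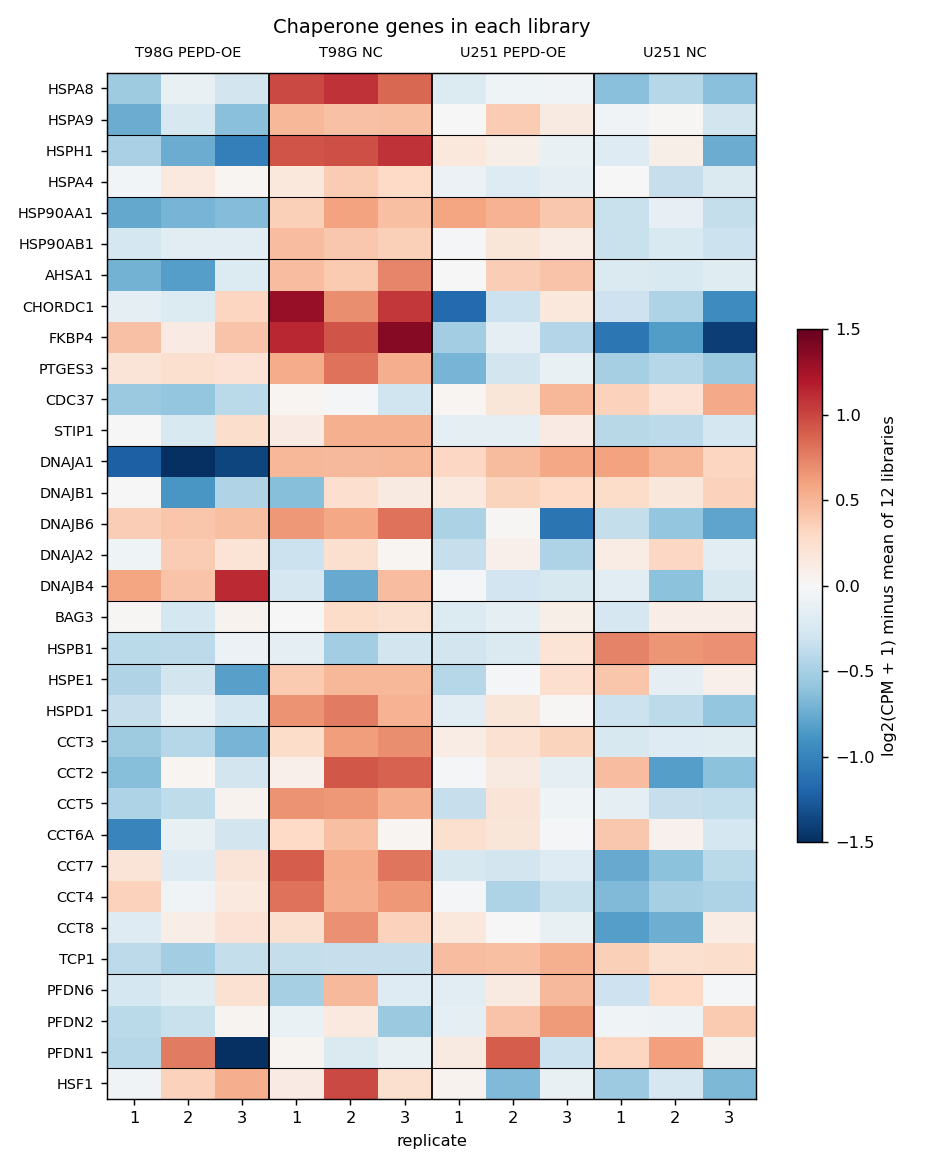
Heat map of the 33 tested members in the 12 libraries, as log2 CPM centred on each gene's mean, with rows grouped by class and columns ordered T98G PEPD-OE, T98G NC, U251 PEPD-OE and U251 NC. T98G NC columns are the high ones for most HSP70, HSP90, co-chaperone and CCT rows. HSPB1 is high in U251 NC columns, and TCP1 is high in the columns of both U251 groups.

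The lines also differed without added PEPD. In T98G NC against U251 NC, 20 of 33 members were higher and 3, HSPB1, TCP1 and CDC37, were lower, where 48.7% of all genes tested were called, 24.4% higher and 24.3% lower. The members' median was 0.74 on the log2 scale. The T98G NC libraries lay wholly above those of U251 NC in 19 members and wholly below in 4, against 27.7% and 27.4% of all genes tested, or 55.1% without overlap in either order. The comparison of the lines uses the same T98G NC libraries as the PEPD-OE comparison in T98G, so their values are set side by side and not correlated. FKBP4 had 154, 135 and 182 CPM in T98G NC, against 32.5, 38.6 and 25.6 CPM in U251 NC, a log2 fold change of 2.28 with an SE of 0.19 (edgeR adjusted p = 1.35e-22). HSPA8 had 806, 859 and 739 CPM in T98G NC, against 261, 300 and 261 CPM in U251 NC, a log2 fold change of 1.55 with an SE of 0.11 (adjusted p = 3.42e-28). These groups stood far apart. DNAJA1, which had the largest fall in T98G, was level between the lines, at 281, 278 and 280 CPM in T98G NC against 302, 280 and 248 CPM in U251 NC (log2 fold change 0.01, adjusted p = 0.942).

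HSPB1 had 205, 156 and 186 CPM in T98G NC, against 376, 357 and 361 CPM in U251 NC, with no overlap and a log2 fold change of -1.02 with an SE of 0.13 (edgeR adjusted p = 3.53e-12). TCP1 had 266, 268 and 268 CPM in T98G NC, against 438, 404 and 410 CPM in U251 NC, with a log2 fold change of -0.64 with an SE of 0.11 (adjusted p = 4.08e-07). In contrast, CCT2, CCT3, CCT4, CCT5, CCT7 and CCT8 of the same ring were called higher in T98G NC, CCT2 with overlapping groups, and CCT6A was not called. CDC37 had -0.50 (SE 0.14, adjusted p = 0.00188). HSF1 was higher in T98G NC by 1.06 (SE 0.31, adjusted p = 0.00244), at 25.3, 46.8 and 27.6 CPM in T98G NC against 15.6, 19.3 and 14.1 CPM in U251 NC. That call was lost when T98G NC replicate 2 was left out (adjusted p = 0.114).

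The members whose windows were printed above had these changes. DNAJA1, HSPA8, HSP90AA1, CHORDC1, HSPD1 and HSP90AB1 were called lower in T98G, and DNAJB6 was not called. Their median log2 fold change was -1.03 over 7 members in T98G, against -0.42 over the 22 tested members whose windows lack the word, and 0.38 against 0.19 in U251. HSPH1, with the second largest fall, has no match in its window. These medians describe the lists and were not tested.

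A further 88 genes of the same pathways were examined beside the members, and 57 of them were tested. They were listed by family, but with earlier results of these data known, as were the members. In T98G 3 rose and 10 fell, with a median log2 fold change of -0.16, and in U251 none rose and 2 fell, with a median of 0.02. The shares called, 22.8% in T98G and 3.5% in U251, lay below the 32.3% and 8.55% of all genes tested. At an unadjusted p under 0.05, edgeR gave 13 of the 57 in U251, beside 1794 of 8773 over all genes tested, and DESeq2 called 1 of them after adjustment. BAG1, an exchange factor of HSP70, had 11.8, 28.0 and 19.9 CPM in T98G PEPD-OE, against 40.1, 61.1 and 48.9 CPM in T98G NC, a fall by 1.36 (SE 0.27). FKBP8, a membrane immunophilin that binds HSP90, had 127, 159 and 168 CPM in T98G PEPD-OE, against 97.1, 94.9 and 92.8 CPM in T98G NC, and 119, 166 and 162 CPM in U251 PEPD-OE, against 232, 214 and 196 CPM in U251 NC. Its groups overlapped in neither line, and it rose in T98G by 0.68 (SE 0.16) and fell in U251 by 0.51 (SE 0.13, edgeR adjusted p = 0.00619). The U251 call of FKBP8 was lost without U251 NC replicate 1, where 0 genes of this list were called. Without U251 NC replicate 3, 1 gene of the list was called. AC005387.1, which lies opposite, held 2 counts against 1381 for FKBP8. PDCL3, a phosducin-like partner of CCT, had 3 counts over the 3 T98G PEPD-OE libraries against 26 over those of T98G NC, which is 8.58-fold lower in CPM with an exact 95% interval of 2.63 to 44.3 for counting error only.

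DNAJC9, a histone co-chaperone, fell by 1.26 in T98G (SE 0.34), but its exons lie opposite FAM149B1, which held 13797 counts against 342. DNAJB7 fell by 1.21 (SE 0.22) and lies opposite XPNPEP3, which held 46 counts against 336. DNAJC21, a ribosome biogenesis factor, rose by 0.69 in T98G (SE 0.21). UNC45A, a myosin chaperone that also binds HSP90, fell by 0.52 in U251 (SE 0.16, edgeR adjusted p = 0.0280). That call was also lost without U251 NC replicate 1. UNC45A lies opposite HDDC3, which held 59 counts against 942, and AC068831.1, which held 105.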

How the data were processed

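Polyadenylated RNA of 12 libraries was sequenced on a strand-specific kit, per the labels' protocols. Reads were handled with fastp, FastQC, HISAT2 and featureCounts of Subread on GRCh38, per the submitters' processing notes. The sources used here state neither the annotation release nor the strand setting. The authors deposited 1 table of whole-number counts per gene, with no normalization, for 63241 gene IDs. The 38 members and the lists of other chaperone genes and cell markers were chosen with earlier results of these data known.

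Genes were filtered with filterByExpr at a minimum count of 10, scaled by TMM and fitted with edgeR 4.0.16 (R 4.3.3) by the robust quasi-likelihood test, with 1 mean per group over all 12 libraries and 8 residual degrees of freedom. Tests were two-sided and adjusted by Benjamini-Hochberg over the 8773 tested genes, and adjusted p under 0.05 was a call. CPM used TMM-scaled library sizes, and the SE is the absolute log2 fold change over the root of F. Values are means or single libraries, and intervals cover counting error only. Named genes were all members, PEPD, genes opposite a member, and for the other list at most 4 called genes in each line and direction, those with the largest changes and at least 10 CPM; BEST1, FTH1, TUBA1B and TUBA1B-AS1 were added after their values were seen. 1 gene that this rule names is not reported here. Symbols came from the table, exons from GENCODE release 29 (92.1% of IDs matched) and promoters from RefSeq. Alternatives were DESeq2 1.42.0, RLE and upper-quartile scaling, robust estimation off, other filters, mitochondrial genes with TALAM1, MALAT1 and BEST1 left out, each line alone, a replicate block, genes without opposite exons each library left out and, added after seeing the data, both T98G libraries numbered 2 left out. The scripts were tested on simulated data.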

Additional observations from a re-analysis of the deposited data

Results flagged for a closer look

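The PEPD-OE change differed between the lines in 21 members by the edgeR test of the difference, T98G change minus U251 change, each past an adjusted p of 0.05. Among HSP70 partners and HSP90 the log2 differences were -1.74 for HSPA8, -1.27 for HSPA9, -2.04 for HSPH1, -1.96 for HSP90AA1 and -1.0 for HSP90AB1. HSPA9 and HSPH1 fell in T98G and were not called in U251, whereas the other 3 were called in opposite directions. HSPB1 stood alone with a positive difference of 0.8.

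For the mitochondrial chaperonin the differences were -1.34 in HSPD1 and -0.84 in HSPE1, and for DNAJA1 the value was -1.89. The co-chaperones gave -0.71 for STIP1, -1.64 for AHSA1, -0.61 for PTGES3, -1.58 for FKBP4 and -1.3 for CHORDC1. CCT subunits gave -1.24 for CCT2, -1.56 for CCT3, -0.77 for CCT4, -1.1 for CCT5, -0.71 for CCT6A, -1.02 for CCT7 and -0.86 for CCT8. CCT8 passed this test although it was called in neither line. These differences share the 12 libraries and 1 scaling, and the same test called 27.7% of all genes tested.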

How the results depend on the processing

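No value changed direction among called results, and 15 of 21 member calls in T98G, 4 of 7 in U251, 22 of 23 between the NC groups and 13 of 21 for the difference held in every setting run. A fit over genes without an exon opposite by construction leaves 19 members and 25 other chaperone genes. In it the members called numbered 12 in T98G, 4 in U251, 14 between the NC groups and 12 for the difference. The other chaperone genes called numbered 6 in T98G and 0 in U251. Over all 4176 genes of that fit, 650 were higher and 490 lower in T98G, and 134 and 111 in U251. Between the NC groups 922 were higher and 921 lower, and for the difference 472 and 445. The other chaperone genes gave 1 call in U251 with DESeq2, with no filter and with at least 1 CPM in 3 libraries, against 2 in the reported fit. With each library left out in turn, member calls ranged over 17 to 21 in T98G, 4 to 7 in U251, 22 to 23 between NC groups and 17 to 20 for the difference, and calls of other genes over 11 to 15 in T98G and 0 to 3 in U251, with 0 without U251 NC replicate 1. DESeq2 called 18 members in T98G, 6 in U251 and 14 for the difference. Over all genes in U251, it called 157 higher and 268 lower, against 362 and 388 with edgeR. The cause of these shifts was not tested. Calls lost in T98G with DESeq2 were CCT4 (adjusted p = 0.0716), CDC37 (0.105) and STIP1 (0.0658), and in U251 CCT3 (0.079). With no filter on low counts, CDC37 (0.0851) was lost in T98G, and CCT3 (0.0985) and HSPD1 (0.061) in U251. For the difference, adjusted p reached 0.103 for CCT2, 0.0801 for CCT4, 0.187 for CCT6A, 0.181 for CCT8, 0.246 for CHORDC1, 0.147 for HSPE1, 0.0993 for PTGES3 and 0.0683 for STIP1. Same-numbered libraries of paired groups deviated together with r of -0.042 to 0.058, and not every library correlated best with its own number, so the numbers were not taken as pairs. The highest r, 0.058, was that of the T98G libraries numbered 2, which also shared high PTPRC, at 39.0 CPM in PEPD-OE and 45.5 CPM in NC. Whether same-numbered T98G libraries shared their handling was not tested. With a replicate block 21 members were called in T98G, 7 in U251, 23 between NC groups and 20 for the difference, and 13 and 2 other chaperone genes. The lines fitted alone give no value for the difference or the NC comparison. With both T98G libraries numbered 2 left out, added after seeing the data, 16 members were called in T98G, 7 in U251, 22 between NC groups and 16 for the difference. Where 3 counts stand for 3.2 to 6.33 CPM, HSF2, PFDN4 and PFDN5 lay near that floor.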
